A study of Mus musculus with 12 samples.

Results

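The neutrophil chemokine genes Cxcl1, Cxcl2, Cxcl3 and Cxcl5, together with the gene of their shared receptor, Cxcr2, were followed in mouse skin after injection of an RNA adjuvant. The 5 genes were chosen by name, as probe sets that carry a single gene symbol. Each had 1 such probe set, so that 5 of the 19938 genes measured are described. RNAdjuvant is a vaccine adjuvant in which RNA that encodes no protein is held in particles by a positively charged peptide. All mice were female and of the Balb/c strain, and no label gives their age. The untreated group is skin of mice that received nothing, and the other groups are skin taken 1.5 h, 6 h or 24 h after 25 mg (as labelled) of RNAdjuvant was put into the dermis. Whether that unit stands for milligrams or was meant as micrograms could not be settled from the labels. Each group holds 3 samples that the labels call biological replicates, numbered 1 to 3, which makes 12 arrays. Whether each came from a mouse of its own is not stated, and p-values measure the spread between these samples. Skin injected with carrier alone was not analysed here, so an effect of the needle cannot be told apart from that of the RNA.

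CXCR2 is a G protein-coupled receptor of neutrophils, the short-lived phagocytes that are the earliest blood cells to enter inflamed skin. Its mouse ligands CXCL1, CXCL2, CXCL3 and CXCL5 are small secreted proteins that carry a glutamate-leucine-arginine (ELR) motif ahead of their paired cysteines. They are made by keratinocytes, fibroblasts, endothelium, mast cells and macrophages under the control of NF-kB, and they guide neutrophils out of marrow and through vessel walls. Their mRNAs are short-lived, because AU-rich elements recruit decay factors such as tristetraprolin.

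The 4 ligand genes lie in 1 cluster on mouse chromosome 5, where the RefSeq order of protein-coding genes is Cxcl5, Ppbp, Pf4, Cxcl3, Cxcl15, Cxcl1 and Cxcl2. Cxcr2 lies on chromosome 1. The promoters of Cxcl1, Cxcl2 and Cxcl3 are shown because they share letters that a reader can set beside the time courses. Within the 250 bases before the gene start, a search for runs of 8 or more letters common to all 3 found GGGAATTTCCC, of 11 letters, and ATAAAAGG, of 8 letters. The former has the form of a kappaB site, the element that NF-kB binds, and the latter that of a TATA element. The last 120 bases before each start (RefSeq, build GRCm38.p6, plus strand, 5′ to 3′) are chr5:90891125-90891244 for Cxcl1, chr5:90903779-90903898 for Cxcl2 and chr5:90785981-90786100 for Cxcl3, with both shared runs in capitals:
Cxcl1: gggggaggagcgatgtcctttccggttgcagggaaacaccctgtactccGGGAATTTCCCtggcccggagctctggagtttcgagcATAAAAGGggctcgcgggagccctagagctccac
Cxcl2: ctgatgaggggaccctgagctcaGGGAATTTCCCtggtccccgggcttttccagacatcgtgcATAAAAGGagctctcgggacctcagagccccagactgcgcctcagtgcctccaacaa
Cxcl3: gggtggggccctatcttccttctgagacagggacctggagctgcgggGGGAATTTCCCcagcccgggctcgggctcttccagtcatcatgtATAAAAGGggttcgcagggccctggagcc

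The longer run began 71, 97 and 73 bases before the start of Cxcl1, Cxcl2 and Cxcl3. The shorter one began 34, 57 and 29 bases before it. Searched on both strands, the longer run was present in 14 of the 32851 promoter windows of 300 bases in the table (0.0426%), and the shorter one in 577 (1.76%). The runs were found in these promoters, so those shares describe how rare the letters are and test nothing. The window of Cxcr2 held neither run, that of Cxcl5 was not analysed here, and among the neighbours Ppbp, Pf4 and Cxcl15 the shorter run occurred on the minus strand of Ppbp alone. A match is a stretch of letters, and binding was not measured.

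**Figure D1:**
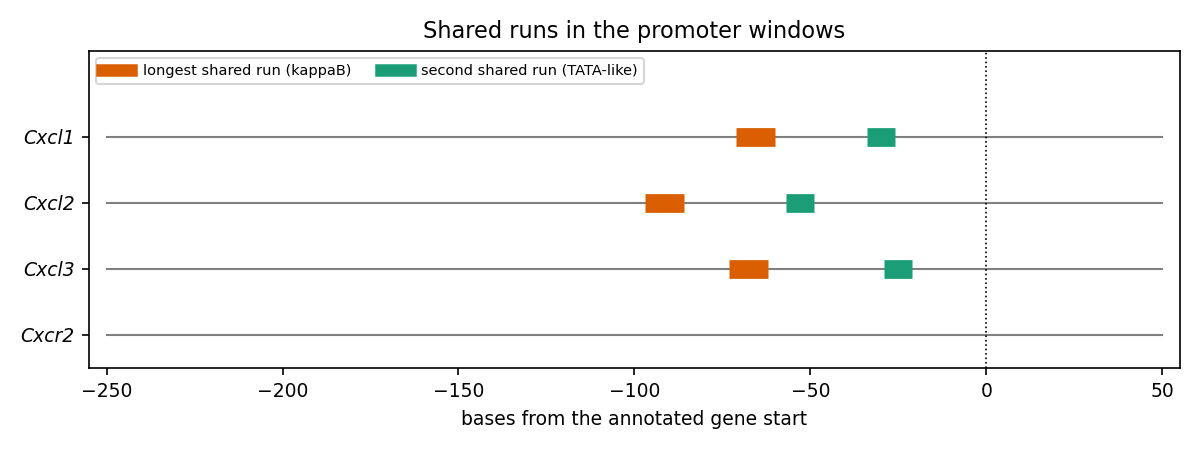
Positions of the 2 shared runs in the promoter windows of Cxcl1, Cxcl2, Cxcl3 and Cxcr2, in bases from the annotated gene start (dotted line). Orange marks the kappaB-like run and green the TATA-like run. In each of the 3 chemokine genes the orange run lies farther from the start than the green one, and Cxcr2 has neither.

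The deposited values are log2 intensities, with array medians between 5.53 and 5.76, and a difference of 1 is a doubling of signal. The mean of 8 keratinocyte markers was 11.17 to 11.5 on the 12 arrays and that of 6 endothelial markers 6.85 to 7.53, which does not go against the skin label. Markers of other tissues differed between arrays. The mean of 7 skeletal muscle markers ran from 10.4 to 12.05, a range that spans that of the keratinocyte markers. Of the 7, Myl2 measured 10.56, 10.43 and 5.38 at 1.5 h, and 10.57, 4.29 and 9.33 at 24 h. Untreated skin gave 4.65, 5.06 and 5.01, and the 6 h arrays 4.66, 4.6 and 6.88. No muscle marker had a limma adjusted p under 0.05 against untreated skin at any time. The part of muscle in other changes was not tested. The lymph node vessel gene Glycam1 measured 11.38 in 1.5 h replicate 1 and 10.88 in 6 h replicate 1, and 4.46 or less on the other 10 arrays. Lymph node and B cell markers, 5 with Glycam1, had means of 7.3 and 6.95 on these arrays and of 3.81 to 4.16 elsewhere. Each of the 5 was highest on these arrays. The source of that signal was not tested. The mean of 5 glandular epithelium markers was 5.49 to 5.94 in untreated skin and in 6 h replicates 2 and 3, and 7.61 to 8.99 on the other 7 arrays. In whole tissue, more cells of a type cannot be told apart from more RNA per cell.

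The ligand genes differed in the time at which each passed the test. Cxcl1 passed as a rise at every time, Cxcl2 at 6 h, Cxcl3 and Cxcl5 at 24 h, and Cxcr2 at 1.5 h. A pass at 1 time and not at another is no test of a difference between the times. For Cxcr2, the ratio of 24 h to 1.5 h was 0.828 and did not pass (limma adjusted p = 0.736). A gene counted as changed at an adjusted p under 0.05 (limma, Benjamini-Hochberg over 19938 genes). At 1.5 h, 2 of the 5 genes rose, against 0.612% of all genes, at 6 h 2 of 5 against 3.38%, and at 24 h 3 of 5 against 2.55%. None of the 5 fell below untreated skin, against 1.59%, 2.71% and 0.808% of all genes that fell at these times. All 3 treated arrays lay above all 3 untreated ones for 3, 4 and 4 of the 5 genes, against 11.8%, 11.4% and 10.9% of all genes. Between times, 1 of the 5 rose from 1.5 h to 6 h (5.47% of all genes), 1 from 6 h to 24 h (2.03%) and 2 from 1.5 h to 24 h (2.24%). None fell, against 7.8%, 1.41% and 0.667% of all genes. In each of these comparisons 2 of the 5 had every later array above every earlier one, against 13.2%, 14.2% and 9.82% of all genes. In a test over the 3 times together all 5 passed, as did 11.4% of all genes (moderated F test in limma, adjusted p = 0.00402 for Cxcl1, 0.00839 for Cxcl2, 0.00525 for Cxcl3, 6.44e-06 for Cxcl5 and 0.0458 for Cxcr2). The Cxcr2 result of that test was lost when any 1 of 10 of the 12 arrays was left out, 6 h replicates 1 and 2 being the exceptions (limma adjusted p from 0.0589 to 0.115). It was also lost with robust eBayes (0.064), quantile normalization (0.0526), cyclic loess (0.0609), no moderation of the variance (0.162) and values raised to a floor of 4 (0.134). No Cxcr2 value lies under 4, so the floor acted only through the moderation of the variance and the adjustment over all genes.

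**Figure D2:**
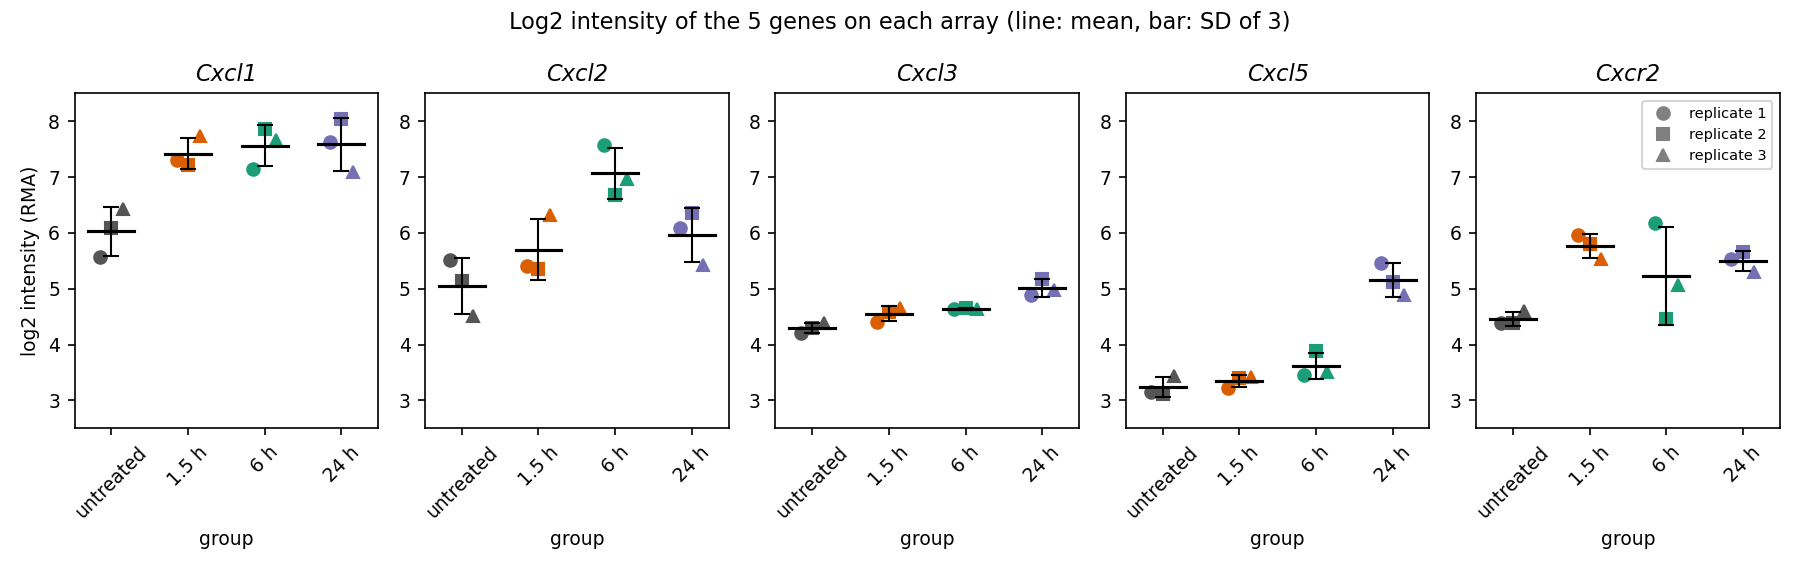
Log2 intensity of each gene on the 12 arrays by group, with replicates 1, 2 and 3 as circles, squares and triangles, the mean as a line and the SD of 3 as a bar. Cxcl1 is raised from 1.5 h on, Cxcl2 is highest at 6 h (mean 7.07), Cxcl5 lies at 3.88 or less on 9 arrays and at 4.88 or more at 24 h, and the 6 h values of Cxcr2 are spread from 4.45 to 6.17. Each panel is a different probe set, so heights are not compared between genes.

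Cxcl1 (probe set 10523151), the keratinocyte-derived chemokine also known as KC, measured 5.56, 6.09 and 6.43 in the untreated replicates 1 to 3. Its 1.5 h values were 7.3, 7.22 and 7.74, those of 6 h 7.15, 7.86 and 7.67, and those of 24 h 7.63, 8.05 and 7.1. All 9 treated arrays lay above all 3 untreated ones. The gene rose 2.63-fold by 1.5 h, from 6.02 ± 0.44 to 7.42 ± 0.28 (SD, n = 3, limma adjusted p = 0.0213). It stood 2.9-fold above untreated skin at 6 h (limma adjusted p = 0.00313) and 2.96-fold at 24 h (limma adjusted p = 0.00345). The 3 treated groups did not differ beyond their spread. From 1.5 h to 6 h the ratio was 1.1 (95% interval 0.742 to 1.64), and from 6 h to 24 h it was 1.02 (95% interval 0.688 to 1.52). The 1.5 h call did not hold when untreated replicate 1, untreated replicate 2 or 1.5 h replicate 3 was left out (limma adjusted p = 0.057, 0.0718 and 0.0578). It was also lost without moderation of the variance (0.109) and with values raised to a floor of 4 (0.0793). No Cxcl1 value lies under 4, so here too the floor acted only through the moderation and the adjustment over all genes. The calls at 6 h and 24 h held without each library in turn, and that of 24 h was lost without moderation (0.0565).

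Cxcl2 (probe set 10523156), also known as MIP-2 and made largely by macrophages and mast cells, measured 5.51, 5.13 and 4.52 in untreated skin. Its 1.5 h arrays gave 5.4, 5.36 and 6.33, its 6 h arrays 7.57, 6.68 and 6.96, and its 24 h arrays 6.09, 6.36 and 5.42. The 3 arrays at 6 h lay above the other 9, while the 1.5 h and 24 h values overlapped the untreated ones. At 6 h Cxcl2 rose 4.04-fold, from 5.05 ± 0.5 to 7.07 ± 0.45 (SD, n = 3, limma adjusted p = 0.00189). Its ratio to untreated skin was 1.56 at 1.5 h (95% interval 0.957 to 2.55, limma adjusted p = 0.33) and 1.87 at 24 h (95% interval 1.15 to 3.05, limma adjusted p = 0.173). Between 1.5 h and 6 h Cxcl2 rose 2.59-fold (limma adjusted p = 0.0175). Leaving out 1.5 h replicate 1, 1.5 h replicate 2 or 6 h replicate 1 ended that call (limma adjusted p = 0.0596, 0.072 and 0.0525). Without both libraries high in Glycam1 the adjusted p was 0.132 and the log2 change 0.98 rather than 1.37. The difference from 6 h to 24 h was -1.11 on the log2 scale and did not pass (limma adjusted p = 0.0805).

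Cxcl3 (probe set 10523138), whose protein is a close relative of CXCL1 and CXCL2, was measured near 4 to 5 throughout. It was at 4.21, 4.3 and 4.38 in untreated skin, 4.4, 4.59 and 4.66 at 1.5 h, and 4.63, 4.65 and 4.63 at 6 h. Its 24 h arrays gave 4.88, 5.18 and 4.98. The arrays at 24 h were above all others, and the differences were small. At 24 h Cxcl3 rose 1.64-fold, from 4.3 ± 0.09 to 5.01 ± 0.15 (SD, n = 3, limma adjusted p = 0.00133). It also rose 1.38-fold between 1.5 h and 24 h (limma adjusted p = 0.0334). Leaving out any of 5 libraries, namely untreated replicate 2, 1.5 h replicates 1 and 2 and 24 h replicates 2 and 3, ended that call (limma adjusted p from 0.0514 to 0.149), as did median centring of the arrays (0.0682) and quantile normalization (0.0715). The difference from 6 h to 24 h, 0.37 on the log2 scale, did not pass (limma adjusted p = 0.076), but passed with median centring (0.0329). At 1.5 h and 6 h the log2 changes of 0.25 and 0.34 did not pass (limma adjusted p = 0.25 and 0.0815), though each group lay above the untreated range. Cxcl1, Cxcl2 and Cxcl3 are similar in sequence, and signal shared between their probes was not tested.

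Cxcl5 (probe set 10523120), also known as LIX, an ELR chemokine of epithelium and other stromal cells, was late. It measured 3.15, 3.12 and 3.44 in untreated skin and 3.22, 3.4 and 3.41 at 1.5 h. Its 6 h arrays gave 3.45, 3.88 and 3.5, and its 24 h arrays 5.47, 5.12 and 4.88. The 3 arrays at 24 h stood apart from the other 9. Cxcl5 rose 3.77-fold at 24 h, from 3.24 ± 0.18 to 5.16 ± 0.3 (SD, n = 3, limma adjusted p = 5.54e-06), and 2.91-fold between 6 h and 24 h (limma adjusted p = 0.000317). From 1.5 h to 24 h it rose 3.51-fold (limma adjusted p = 1.39e-05). Its ratio to untreated skin was 1.07 at 1.5 h (95% interval 0.846 to 1.37, limma adjusted p = 0.789) and 1.29 at 6 h (95% interval 1.02 to 1.64, limma adjusted p = 0.186). All values before 24 h lay well under the array medians, where an array compresses differences. With values raised to a floor of 4, which lies above all 9 of them, the 24 h change was 1.16 on the log2 scale in place of 1.91 (limma adjusted p = 0.00143). The 24 h calls of Cxcl5 held under every alternative run and without each library in turn.

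**Figure D3:**
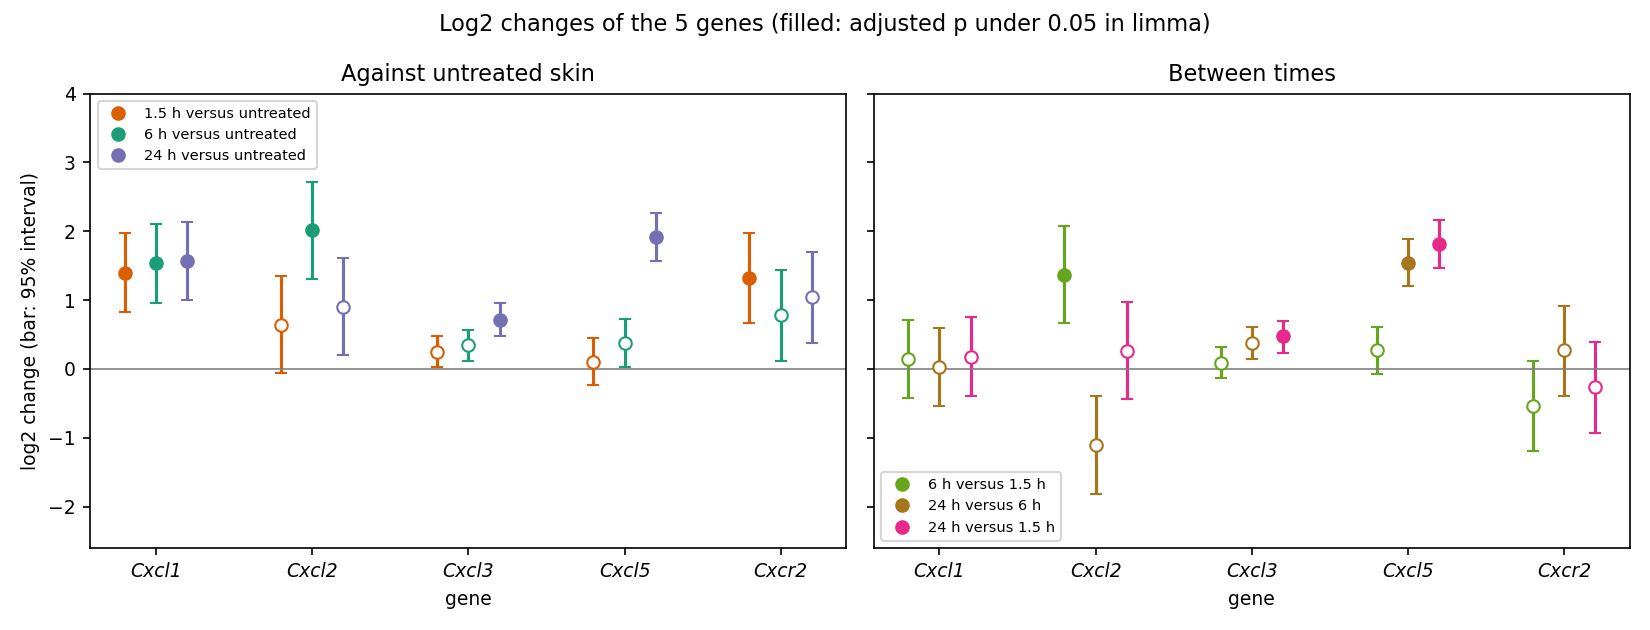
Log2 change of each gene in limma with its 95% interval, against untreated skin (left) and between times (right), with filled points where the adjusted p was under 0.05. Filled points stand for Cxcl1 at all 3 times, Cxcl2 at 6 h (2.01), Cxcl3 at 24 h (0.71), Cxcl5 at 24 h (1.91) and Cxcr2 at 1.5 h (1.32). Between times they stand for Cxcl2 from 1.5 h to 6 h, Cxcl3 from 1.5 h to 24 h and Cxcl5 into 24 h.

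Ordered by mean, the levels of Cxcl1 ran from untreated skin to a plateau of 7.42, 7.56 and 7.59 at 1.5 h, 6 h and 24 h, whose members were not told apart. Cxcl2 ran untreated, 1.5 h, 24 h and 6 h, and of these neighbours none passed, although 6 h passed against untreated skin and 1.5 h. Cxcl3 ran in order of time, and none of its neighbours passed either. Cxcl5 also ran in order of time, and 24 h against 6 h was the pair of neighbours that passed. Cxcr2 ran untreated, 6 h, 24 h and 1.5 h, and none of its neighbours passed.

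Cxcr2 (probe set 10347291), the receptor, was measured at 4.38, 4.39 and 4.6 in untreated skin and at 5.97, 5.8 and 5.54 at 1.5 h. At 6 h its values were 6.17, 4.45 and 5.06, the widest spread of the gene, and at 24 h they were 5.53, 5.66 and 5.3. The 1.5 h and 24 h arrays lay above the untreated range, and 1 array at 6 h lay inside it. Cxcr2 rose 2.49-fold at 1.5 h, from 4.45 ± 0.12 to 5.77 ± 0.22 (SD, n = 3, limma adjusted p = 0.0424). Leaving out any 1 of the 6 arrays compared ended the call, and so did leaving out 6 h replicate 3, 24 h replicate 1 or 24 h replicate 2 (limma adjusted p from 0.0528 to 0.139, the highest without untreated replicate 2). It was also lost with robust eBayes (0.0606) and with cyclic loess (0.0527). At 24 h it measured a ratio of 2.06 (95% interval 1.31 to 3.25, limma adjusted p = 0.0895), which passed without 6 h replicate 1 or 2 (0.00246 and 0.0268). This ratio also passed with only the groups compared (0.0013) and with array weights (0.0461). At 6 h the ratio was 1.71 (95% interval 1.09 to 2.7, limma adjusted p = 0.15), and without 6 h replicate 2 it passed (0.0248, log2 change 1.16 in place of 0.78). Without 6 h replicate 1 Cxcr2 was lower at 6 h than at 1.5 h (log2 change -1.01, limma adjusted p = 0.00525) and higher at 24 h than at 6 h (0.74, 0.0429).

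The 3 highest arrays of Cxcr2 were 6 h replicate 1 and 1.5 h replicates 1 and 2, and 2 of these are the libraries high in Glycam1. Glandular epithelium markers moved with it. Untreated skin had a mean of 5.66 to 5.94 over Krt8, Krt18, Krt19, Wfdc18 and Csn3, against 7.77 to 8.99 at 1.5 h and 7.61 to 8.19 at 24 h. At 6 h this mean was 8.54 in replicate 1, 5.59 in replicate 2 and 5.49 in replicate 3. Of these 5 markers 2 rose at 1.5 h, 0 at 6 h and 1 at 24 h, against 0.612%, 3.38% and 2.55% of all genes. Without 6 h replicate 1 the counts at 1.5 h and 24 h were 5 and 5, and without untreated replicate 3 the count at 1.5 h was 0, as was that at 24 h without untreated replicate 1, 24 h replicate 1 or 24 h replicate 3. The mean of 19 neutrophil markers was 5.13 to 5.36 in untreated skin, 5.62 to 6.49 at 1.5 h, 5.67 to 6.04 at 6 h and 5.79 to 6.02 at 24 h. The part of either cell type in the change of Cxcr2 was not tested.

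**Figure D4:**
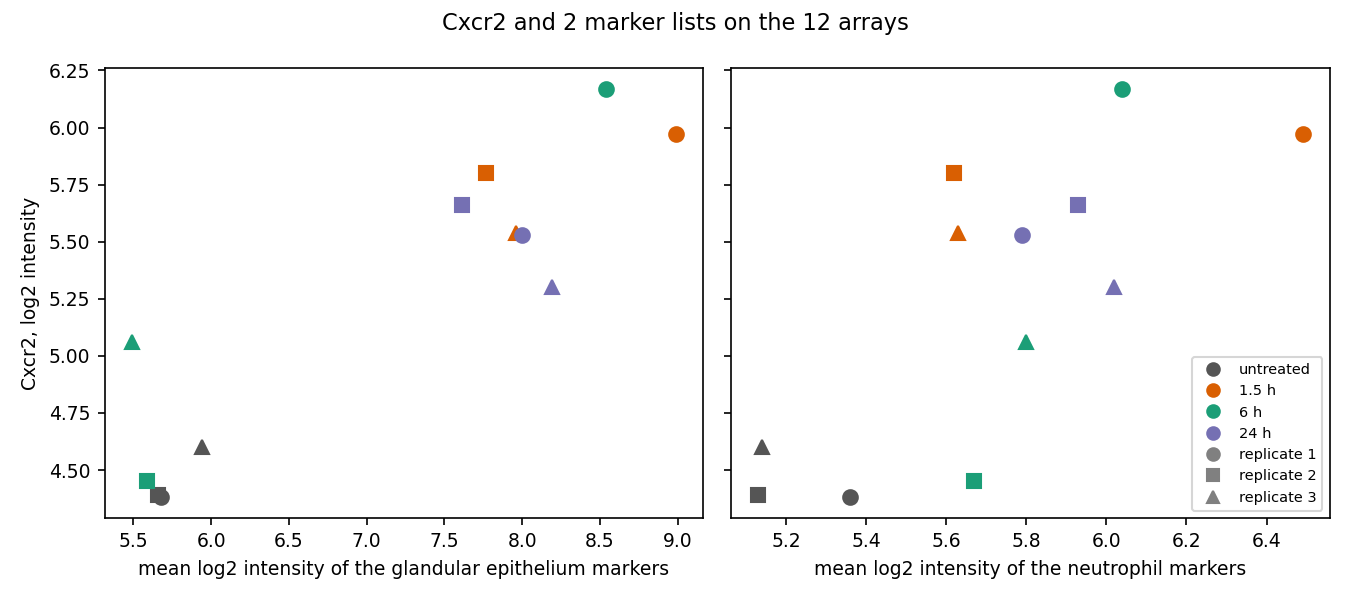
Log2 intensity of Cxcr2 on each of the 12 arrays (vertical) against the mean log2 intensity of 5 glandular epithelium markers (left) and 19 neutrophil markers (right), with groups as colours and replicates as shapes. On the left, the 7 arrays with a glandular mean of 7.61 or more have Cxcr2 at 5.3 or more, and the other 5 have it at 5.06 or less. On the right, the highest neutrophil means (6.49 and 6.04) fall on the arrays with the highest Cxcr2 (5.97 and 6.17). Untreated arrays have the lowest neutrophil means (5.13 to 5.36), and 6 h replicate 2, with Cxcr2 at 4.45, has 5.67. Arrays of 1 group share their treatment, so the panels show no independent relation.

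The closest relatives of these genes were at hand on the same arrays. Cxcr1, the other ELR chemokine receptor, measured 4.52 to 5.35, with log2 changes of -0.05, 0.32 and -0.08 at 1.5 h, 6 h and 24 h (limma adjusted p = 0.909, 0.23 and 0.844). At 6 h its replicates were 4.64, 5.35 and 5.2, and without replicate 1 it passed (limma adjusted p = 0.0205). The platelet chemokines Ppbp and Pf4 passed at no time, and Ppbp was at 6.0 in 1.5 h replicate 1 against 3.36 to 4.3 elsewhere. Cxcl15, an ELR chemokine known from lung epithelium, measured 3.39, 3.04 and 3.68 in untreated skin and 7.36, 5.43 and 4.39 at 1.5 h. Its 1.5 h values lay above the untreated range and spread widely (ratio 5.13, limma adjusted p = 0.061), and the change passed without 1.5 h replicate 3 or 6 h replicate 1 (0.0237 and 0.0436). All untreated values of Cxcl15 lay under 4, and with values raised to a floor of 4 the 1.5 h ratio was 3.31 (limma adjusted p = 0.25). At 24 h Cxcl15 passed without both libraries high in Glycam1 (0.0165). Like Cxcr2, it was highest at 6 h in replicate 1, at 5.13 against 3.7 and 3.37.

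Of the 5 receptor relatives and scavengers 1 rose and 1 fell, both at 6 h, when 3.38% of all genes rose and 2.71% fell. Ackr1, the Duffy antigen of venules that carries chemokines across endothelium, rose 1.37-fold (limma adjusted p = 0.0434), a call that 8 of the 12 arrays, left out singly, ended: all 3 untreated ones, 1.5 h replicates 1 and 3, 6 h replicates 2 and 3, and 24 h replicate 1 (limma adjusted p up to 0.161). Ackr2, a scavenger of CC chemokines, fell by 0.55 on the log2 scale (limma adjusted p = 0.00725). Cxcr4, which holds neutrophils in marrow, and Ackr3 passed at no time.

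Cytokines upstream of these chemokines, with their receptors and an antagonist, rose in part. Of 20 measured upstream cytokines and receptors, 2 rose at 1.5 h, 5 rose and 1 fell at 6 h, and 4 rose and 1 fell at 24 h, with median log2 changes of 0.1, 0.14 and 0.1, against 0.022, -0.042 and 0.001 over all genes. Among all genes 0.612%, 3.38% and 2.55% rose and 1.59%, 2.71% and 0.808% fell at these times. The rises at 6 h were those of Il6, Tnf, Il1b, Il33 and Il1rn, which encodes an antagonist of the interleukin 1 receptor. Those at 24 h were of Il6, Tnf, Il1b and the TNF receptor gene Tnfrsf1b. Tnf measured 5.99, 5.65 and 5.63 in untreated skin, 6.69, 6.64 and 6.82 at 1.5 h, 7.39, 7.63 and 8.09 at 6 h, and 6.75, 7.23 and 6.83 at 24 h. It rose 1.95-, 3.87- and 2.27-fold at the 3 times (limma adjusted p = 0.0181, 6.81e-06 and 0.00117), and its 1.5 h call ended when untreated replicate 2, untreated replicate 3 or 1.5 h replicate 2 was left out (up to 0.083). Il1b, the classical inducer of Cxcl1, measured 6.16, 5.78 and 5.83 in untreated skin and 6.81, 6.4 and 6.06 at 1.5 h, where it did not pass (limma adjusted p = 0.212). It rose 2.24-fold at 6 h and 2.18-fold at 24 h (limma adjusted p = 0.00289 and 0.00494).

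Il6, a cytokine of the acute phase, rose 6.73-, 12.3- and 3.67-fold. Its untreated values all lay under 4, and with the floor of 4 the ratios were 4.46, 8.16 and 2.43, of which only that of 6 h passed (limma adjusted p = 0.0569, 0.0042 and 0.172). In addition, the 24 h call ended when untreated replicate 1 or 24 h replicate 2 was left out (limma adjusted p = 0.0759 and 0.0708). Il17a, a T cell cytokine that stabilises Cxcl1 mRNA, lay between 5.08 and 5.49 on all 12 arrays and passed at no time (limma adjusted p = 0.279, 0.356 and 0.722). Csf3, which encodes the granulocyte growth factor G-CSF, lay between 5.03 and 5.67 and passed at no time either (0.209, 0.989 and 0.288). The member that fell was Il1f8, which encodes interleukin 36 beta, at 6 h and 24 h. Without 1 library the counts of rises ran from 1 to 2 at 1.5 h (1 without untreated replicate 2 or 3 or 1.5 h replicate 2), from 3 to 5 at 6 h (3 without untreated replicate 1 or 2 or 6 h replicate 3) and from 2 to 4 at 24 h (2 without 24 h replicate 2). The fall at 6 h ended when any untreated array, 6 h replicate 1 or 6 h replicate 2 was left out, and 2 members fell at 24 h when 24 h replicate 3 was.

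Of 18 measured NF-kB and mRNA stability regulators, 1 rose at 1.5 h, 8 at 6 h and 1 at 24 h, where 1 also fell (median log2 changes 0.21, 0.35 and 0.13). The 18 also held the transcription factor genes Cebpb and Cebpd and the adaptor gene Traf3ip2, and Cebpd was among the 8. The share of all genes that rose was also highest at 6 h (0.612%, 3.38% and 2.55% at the 3 times), and 0.808% of all genes fell at 24 h. The counts were not tested against each other. Bcl3, an NF-kB cofactor, rose 2.46-, 3.61- and 1.94-fold at the 3 times. Tnfaip3, the feedback inhibitor A20, rose 2.89-fold at 6 h (limma adjusted p = 0.000199), and Nfkbie, an NF-kB inhibitor, 2.11-fold (0.00499). Nfkbiz, the coactivator IkB-zeta, measured 7.37, 8.12 and 8.07 at 6 h against 7.06, 7.22 and 7.21 in untreated skin and rose 1.61-fold (limma adjusted p = 0.0425). Zfp36, which encodes tristetraprolin, rose 1.93-fold at 6 h (limma adjusted p = 0.00264) and stood at ratios of 1.42 at 1.5 h and 1.05 at 24 h that did not pass (0.123 and 0.883). The 6 h count was 5 without untreated replicate 2 or 3 or 6 h replicate 2. Leaving out any of 7 arrays ended the Nfkbiz call: each untreated one, 1.5 h replicate 3, 6 h replicate 2, 6 h replicate 3 and 24 h replicate 1 (limma adjusted p up to 0.16). The Bcl3 call at 1.5 h ended without untreated replicate 2 (limma adjusted p = 0.0557), and the one at 24 h without either of replicates 1 and 2 of both groups compared (up to 0.116). The fall at 24 h, of the decay factor gene Zfp36l1, ended without any untreated array, 24 h replicate 1 or 24 h replicate 3, and 2 genes fell without 24 h replicate 2.

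Of 19 measured genes that act downstream of CXCR2 in neutrophils, 1 rose at 1.5 h, 1 at 6 h and 6 at 24 h (median log2 changes 0.06, 0.01 and 0.33), against 0.612%, 3.38% and 2.55% of all genes. The 6 were the GTPase gene Rac2 (2.38-fold, limma adjusted p = 0.0448), the NADPH oxidase genes Cyba (2.22-fold, 0.0133), Cybb (2.17-fold, 0.0403) and Ncf1 (1.57-fold, 0.0457), the kinase gene Fgr (2.16-fold, 0.00341) and the arrestin gene Arrb2 (1.51-fold, 0.0378). Cybb also rose 2.52-fold at 6 h (limma adjusted p = 0.0101). The 24 h count ran from 1 (without untreated replicate 2 or 24 h replicate 3) through 2 (without untreated replicate 3, 1.5 h replicate 3, 6 h replicate 3 or 24 h replicate 2) to 7. The rise at 1.5 h, of Ncf1, ended when any 1 of the 6 arrays compared, 6 h replicate 3 or 24 h replicate 2 was left out, and when both libraries high in Glycam1 were. These genes are also expressed by macrophages and other leukocytes. Of 7 measured monocyte and macrophage markers, 0 rose or fell at 1.5 h, 1 fell at 6 h (the scavenger receptor gene Cd163) and 2 rose at 24 h. The median log2 changes of the 7 were 0.03, -0.06 and 0.09. Among all genes 2.71% fell at 6 h and 2.55% rose at 24 h. The Cd163 call ended without untreated replicate 1 or 3, any 1.5 h array, or replicate 2 or 3 of 6 h or 24 h (limma adjusted p up to 0.169). It was also lost with quantile normalization (0.0509) and cyclic loess (0.0875). The 2 that rose were the receptor gene Ccr2, from 8.06 ± 0.29 to 9.34 ± 0.29 (SD, n = 3), and Adgre1, which encodes F4/80 and whose call ended without any 1 of 6 arrays (limma adjusted p up to 0.176). At 24 h Cd163 and Mrc1, macrophage receptor genes, had log2 changes of -0.7 and -0.52 that did not pass (limma adjusted p = 0.0896 and 0.191). The part of these cells in the counts above was not tested.

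Neutrophil markers rose in part. Of 19 measured, 4 rose at 1.5 h, 5 at 6 h and 6 at 24 h, with 0 falls. Among all genes 0.612%, 3.38% and 2.55% rose and 1.59%, 2.71% and 0.808% fell. At 24 h the means of S100a8, Cxcr1, Mmp9, Camp, Ngp and Elane were below those of untreated skin, and those of the other measured markers were above. The median log2 changes of the 19 markers were 0.6, 0.45 and 0.41 at the 3 times. The first rests on 1.5 h replicate 1, a library high in Glycam1, whose median difference from the untreated mean was 1.07 against 0.25 and 0.23 in replicates 2 and 3. Without it the median at 1.5 h was 0.14. Clec4e, the receptor Mincle of neutrophils and macrophages, measured 3.78, 3.2 and 3.46 in untreated skin and 5.18, 5.17 and 5.03 at 1.5 h. It rose 3.14-, 4.55- and 10.2-fold at the 3 times (limma adjusted p = 0.00535, 5.48e-05 and 1.45e-06). All its untreated values lay under the floor of 4, with which the ratios were 2.19, 3.16 and 7.09 and that of 1.5 h did not pass (limma adjusted p = 0.0834, 0.00812 and 0.000788). Csf3r, the G-CSF receptor of neutrophils, rose 2.18-fold at 6 h and 1.97-fold at 24 h (limma adjusted p = 0.000426 and 0.00194), and its ratio at 1.5 h was 1.09 (0.712). Hdc, which makes histamine, rose 1.8-, 2.47- and 2.43-fold, and it is also a mast cell gene. Ly6g, which defines mouse neutrophils, measured 2.91 to 3.14 in untreated skin and 2.85 to 4.24 after treatment, and passed at no time (limma adjusted p = 0.638, 0.128 and 0.46). Without both libraries high in Glycam1 it passed at 6 h (limma adjusted p = 0.0171). Of its values only 6 h replicate 3, at 4.24, lay above 4. With the floor of 4 and all arrays the 6 h change was 0.08 on the log2 scale (limma adjusted p = 0.438).

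The calprotectin subunit genes S100a8 and S100a9, whose products pair in neutrophils, differed in their calls. S100a9 measured 7.33, 6.78 and 6.67 in untreated skin and 10.09, 8.96 and 8.73 at 1.5 h, a 5.04-fold rise (limma adjusted p = 0.0166) that was lost without untreated replicate 2 or 3 (0.0718 and 0.0763). Its 6 h arrays gave 9.53, 7.61 and 8.05, and the change of 1.47 on the log2 scale did not pass (limma adjusted p = 0.0569, but 0.0321 when 1.5 h replicate 1 was left out and 0.03 when 6 h replicate 2 was). At 24 h the change of 1.37 did not pass either (0.104, but 0.0185 without 6 h replicate 1). S100a8 measured 9.77, 9.38 and 9.55 in untreated skin and 10.35, 8.77 and 9.12 at 1.5 h. Its 6 h arrays gave 9.46, 9.43 and 8.56, and its 24 h arrays 8.84, 8.82 and 9.05, which lay below the untreated range. S100a8 passed at no time (limma adjusted p = 0.848, 0.455 and 0.323). With only the groups compared, its 24 h change of -0.67 passed as a fall (0.0223), and that of S100a9 passed as a rise (0.00124). The difference between both genes was not tested. The granule gene Ltf, also made by glands, rose 3.58-fold at 24 h (limma adjusted p = 0.0455), a call that ended when any 1 of the 6 arrays compared or 1.5 h replicate 3 was left out (up to 0.153). The 1.5 h count of rises was 1 without untreated replicate 2 or 3 and 2 without 1.5 h replicate 1 or 2.

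Mast cells are a further source of these chemokines in skin. Of 8 mast cell markers, 1 rose at 1.5 h and 0 at 6 h or 24 h, against 0.612%, 3.38% and 2.55% of all genes. Tpsab1, a tryptase gene, rose at 1.5 h from 5.2 ± 0.12 to 6.33 ± 0.67 (SD, n = 3), a call that ended when any 1 of the untreated arrays was left out (limma adjusted p up to 0.127), while Mcpt4, a chymase gene, stood at 8.55 ± 0.34 and 8.5 ± 0.26 (SD, n = 3). Of 8 keratinocyte, 6 fibroblast and 6 endothelial markers, 1 fell and 0 rose against untreated skin at any of the 3 times. The fall was that of Krt1, a keratin of the upper epidermis, at 24 h (limma adjusted p = 0.0436), and it did not pass when any of 9 arrays was left out (up to 0.146). Among all genes 0.612%, 3.38% and 2.55% rose and 1.59%, 2.71% and 0.808% fell at the 3 times. Without 6 h replicate 1, 2 endothelial markers fell at 6 h.

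The genes most like each of the 5, by Pearson correlation over the 12 arrays among 682 genes whose group means spanned at least 1 log2 unit, differed from gene to gene, apart from Gzma, which Cxcl3 and Cxcl5 shared. For Cxcl1 they were the monocyte chemoattractant genes Ccl2 (r = 0.892) and Ccl7 (0.884), and Ptx3 (0.859), which encodes a soluble pattern recognition protein. For Cxcl2 they were the ubiquitin ligase gene Trim25 (0.892), Plekha4 (0.874) and the apoptosis inhibitor gene Birc3 (0.869), which like Cxcl2 had their highest group mean at 6 h. Ccl2, Ccl7 and Ptx3 had theirs at 6 h too. Cxcl3 was nearest to the granzyme gene Gzma (0.923), the natural killer cell receptor gene Ncr1 (0.92) and Ly6i (0.907). Cxcl5 was nearest to Gzmb (0.94), the leukocyte inhibitory receptor gene Lair1 (0.928) and Gzma (0.925), whose mean was 4.46 in untreated skin and 8.81 at 24 h. Cxcr2 was nearest to the hormone gene Stc2 (0.921), S100a9 (0.916) and the epithelial gene Wfdc2 (0.91), whose means were 4.97, 7.0, 6.13 and 6.56 in untreated skin and at 1.5 h, 6 h and 24 h. The arrays share 4 treatments, so these correlations describe likeness in these samples and were not tested.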

How the data were processed

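The deposited log2 intensities cover 35556 probe sets on 12 Affymetrix Mouse Gene 1.0 arrays. The submitters' processing notes name RMA and Affymetrix Expression Console 1.1. RMA subtracts background, quantile-normalizes arrays and summarises probes, which compresses low values. No detection calls were used, so low values were not called absent. Of the probe sets, 21789 carried 1 gene symbol in the platform annotation. Where a gene had several, the one with the highest mean was kept, which left 19938 genes. Promoters came from RefSeq (GRCm38.p6).

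All groups were fitted together in limma 3.58.1 (R 4.3.3) without a block, with 8 residual and 5.24 prior degrees of freedom. Tests are two-sided, with p adjusted over all genes within a comparison. Fold changes are ratios of geometric group means. The number of arrays limits the precision.

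The genes and lists were chosen with earlier results of these data known. Of the lists, the text names up to 3 members with the largest changes among those called, plus genes named in any case (Ppbp, Pf4, Cxcl15, Cxcr1, Ackr1, Il1b, Tnf, Il17a, Csf3, Nfkbiz, Zfp36, S100a8, S100a9, Ly6g and Csf3r). Others, such as Hdc, Glycam1, Mrc1, Fgr, Arrb2, Ncf1, Il1f8, Zfp36l1, Cxcr4, Ackr3 and Mcpt4, were named after their values were seen. So were Myl2, Mmp9, Camp, Ngp, Elane, Il1rn, Il33, Tnfrsf1b, Cebpb, Cebpd and Traf3ip2. For likeness, genes with Gm, Rik, LOC, Olfr or Mir names were left out.

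The fit was tested on simulated data with known changes. The alternatives were other variance models, array weights, a replicate block, 3 scalings, a filter, a floor, other probe set rules, only the groups compared, a stricter threshold and leaving out libraries. Analysis used Python 3.11.15, pandas 2.3.3 and SciPy 1.17.1, and figures matplotlib 3.10.9.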

Additional observations from a re-analysis of the deposited data

Results flagged for a closer look

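Several of the 5 genes had effects that differed between times in limma, by the test of the difference itself. The effect on Cxcl2 was larger at 6 h than at 1.5 h by 1.37 log2 units (limma adjusted p = 0.0175). Those on Cxcl3 and Cxcl5 were larger at 24 h than at 1.5 h, by 0.47 and 1.81 (limma adjusted p = 0.0334 and 1.39e-05). That on Cxcl5 was also larger at 24 h than at 6 h, by 1.54 (limma adjusted p = 0.000317). Both comparisons behind each difference share the untreated arrays, which cancel in it. The reliance of the Cxcl2 and Cxcl3 calls on single libraries is given with their values above, and those of Cxcl5 held without each library. Groups of 3 were not tested for outlying samples.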

How the results depend on the processing

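The counts of the 5 genes called at 6 h (2) and 24 h (3) against untreated skin stayed within 1.5 times in all alternatives. Without 1 library they ran from 2 to 3 and from 3 to 4. At 24 h Cxcl1 was lost without moderation. Cxcr2 was gained there with array weights, with only the groups compared and without both libraries high in Glycam1. The count at 1.5 h (2) ran from 0 to 2 without 1 library, and was 1 with robust eBayes or cyclic loess and 0 without moderation, with a floor at 4 or at an adjusted p under 0.01. From 1.5 h to 6 h (1) it ran from 0 to 1 without 1 library and was 0 without moderation, with the floor or at the stricter threshold. From 6 h to 24 h (1) it ran from 1 to 2, and was 2 under all 3 scalings and without both libraries high in Glycam1. From 1.5 h to 24 h (2) it ran from 1 to 2, and was 1 without moderation, with median centring or quantile normalization, with only the groups compared, without both libraries high in Glycam1 and at the stricter threshold. Over any time (5) it ran from 4 to 5, and was 2 without moderation and 3 with the floor. Without both Glycam1 libraries the gene called from 1.5 h to 6 h was Cxcr2, which fell by 0.91, and not Cxcl2. Over all genes, 439, 1215 and 670 were called at 1.5 h, 6 h and 24 h. Without 1 library these ran from 97 to 597, 712 to 1364 and 423 to 756. Between times, 2646 (1.5 h to 6 h), 685 (6 h to 24 h) and 580 (1.5 h to 24 h) were called. These ran from 949 to 2951, 142 to 877 and 321 to 653. At 1.5 h, 438 were called with robust eBayes, 415 with cyclic loess, 41 without moderation and 170 with the floor.

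Signs turned only in comparisons between times, none of which passed with its sign turned. For Cxcl1, leaving out 1 library gave changes from -0.01 (without 6 h replicate 2) to 0.34 from 1.5 h to 6 h, from -0.05 (without 24 h replicate 2) to 0.42 from 1.5 h to 24 h, and from -0.2 (without 24 h replicate 2) to 0.28 from 6 h to 24 h. The last was -0.17 without 6 h replicate 1 or both Glycam1 libraries, -0.02 with quantile normalization and -0.03 with cyclic loess. For Cxcl3 from 1.5 h to 6 h it was -0.04 with median centring or cyclic loess and -0.12 with quantile normalization. For Cxcr2 from 6 h to 24 h it ran from -0.12 without 6 h replicate 2 to 0.74 without 6 h replicate 1, where it passed. The cause was not tested. Same-numbered arrays of different groups correlated above 0.1 in their deviations from group means in 4 of 18 pairs, so the numbers were not taken as pairing. With the replicate block the counts of the 5 genes were 2, 2 and 3 at 1.5 h, 6 h and 24 h, and the block changed no call of the 5 genes. Beside them, S100a9 passed with it at 6 h and 24 h (limma adjusted p = 0.00827 and 0.0165) and Cxcl15 at 1.5 h (0.0232).

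Median centring moved the median change of all genes between 1.5 h and 6 h from -0.034 to -0.168, and that at 1.5 h from 0.022 to 0.123. Of all genes called at 1.5 h, 27.8% were higher, against 56.9%, 43.2% and 34.7% with median centring, quantile normalization and cyclic loess. At 6 h it was 55.5%, and 69.4% with cyclic loess. Between 1.5 h and 6 h it was 41.2%, against 16.5% with median centring, and with cyclic loess 1142 of 2078 called genes were higher. From 6 h to 24 h it was 59.0%, against 80.2% with median centring and 44.0% with cyclic loess. Of the genes that the lists name by rule, all 8 calls at 1.5 h were lost without moderation and with the floor at 4. At 6 h 4 and 3 of 14 were lost, and at 24 h 11 and 9 of 14. Calls over all genes fell as well, at 1.5 h from 439 to 41 without moderation and to 170 with the floor. At 6 h 1215 became 970 and 1156, and at 24 h 670 became 424 and 557. Of the 8 listed genes called at 1.5 h, only Il6 and Clec4e had values under 4. The floor leaves values above it unchanged, so the other 1.5 h calls were lost through the moderation and the adjustment over all genes. Low intensities limit Cxcl3 and Cxcl5, whose changes may be understated.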
